A study of Bos taurus with 8 samples.

Results

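Integrin and laminin transcripts were measured in cultured bovine mammary epithelial cells that carried one of 2 short hairpin RNAs (shRNAs) against EEF1D, or no shRNA. The genes were taken by symbol: every probe whose name in the array files was that of an integrin alpha, integrin beta or laminin subunit, which gave 33 genes on 92 of 43653 probes. Of these, 27 had a probe with signal well above background on no fewer than 2 of the 8 arrays and were tested among 12780 genes: 11 integrin alpha genes, 8 integrin beta genes and 8 laminin genes. Each gene was represented by its brightest such probe. The other 6 were too dim to test: ITGA4, ITGA9 and LAMA2 were well above background on 0 arrays, and ITGAD, ITGAL and ITGAM on at most 1.

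EEF1D-1357 and EEF1D-1893 each had 3 arrays, and 2 control arrays were labelled as having no shRNA. All came from primary cells isolated from mammary tissue of 1 lactating Holstein cow and used at the fifth passage. EEF1D encodes a subunit of the exchange complex that reloads translation elongation factor 1 with GTP, and the labels describe both shRNA groups as EEF1D knockdowns. No array in the labels carried a non-targeting shRNA, so introduction of an shRNA and loss of EEF1D cannot be told apart here. Nothing in the labels says that the arrays of a group stand for separate cultures, so the p-values speak of the spread among these arrays alone, which may be technical.

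Integrins are paired receptors, 1 alpha and 1 beta subunit, that bind a cell to its matrix and to other cells. Laminins are trimers of an alpha, a beta and a gamma chain and are the main glycoproteins of the basement membrane. In the mammary gland, epithelial cells sit on a laminin-rich basement membrane, and contact with it through integrins is needed for polarity and for milk gene expression. Basal cells also anchor to it through hemidesmosomes, which hold the integrin of ITGA6 and ITGB4 and a laminin that contains the LAMA3 and LAMB3 chains.

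No integrin or laminin gene passed an adjusted p of 0.05 in any comparison, and neither did any other gene (limma, 0% of 12780 genes called). The values below therefore describe levels and differences that were not called. For both shRNAs against control, ITGA1, ITGAV, ITGA6 and LAMB1 lay above both controls in all 6 shRNA arrays (14.8% of the 27 genes, beside 7.77% of all genes), whereas ITGA2B, LAMA5 and LAMB2 lay below both (11.1%, beside 9.05%). Leaving out control replicate 2 alone would have put 6 of the 27 genes past the threshold (ITGA1, ITGA6, ITGAV and ITGB1 higher, ITGB2 and ITGB5 lower), with 2952 genes called in all, and leaving out control replicate 1 would have put 0 of the 27 there, with 26 genes called in all. With 1 control left, the spread in these fits comes from the shRNA arrays alone, and the lone control is assumed to vary as they do.

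All levels are the log2 processed intensity of a probe minus the 75th percentile of its array, so 0 is the level at that percentile. On each array, 60.6% to 71.5% of probes had signal well above background, with a 75th percentile of 1265 to 2078 intensity units and 0 saturated probes. Precision is limited by the number of arrays. The target EEF1D stood at 5.98, 5.87 and 5.10 with EEF1D-1357, at 6.001, 5.75 and 5.78 with EEF1D-1893, and at 7.13 and 6.15 in control. By this brightest probe it lay below both controls in all 6 shRNA arrays, by a mean log2 difference of −0.89 (SE 0.32, limma adjusted p = 0.244), and the controls themselves were 0.98 apart. Other EEF1D probes, each fitted as its own feature, had −0.88, −1.16 and −0.32 (SE 0.31, 0.48 and 0.33). For the last of these the mean of the shRNA arrays lay 0.35 above control replicate 2, and EEF1D-1893 had −0.12. Epithelial keratins were high throughout: KRT8 lay between 7.60 and 7.81 in the shRNA arrays, against 7.64 and 8.25 in control. Control replicate 1 had the lowest median correlation with the other arrays (0.968, against 0.976 to 0.981 for the rest). Each slide held 1 shRNA and 1 control: slide 1 held EEF1D-1357 and control replicate 2, and slide 2 held EEF1D-1893 and control replicate 1. A difference between the shRNAs is therefore also one between slides.

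The sequences below show where on ITGAV, ITGB5 and LAMA5 the arrays looked, since probes of these genes gave different differences. They are 60 bases long, 5′ to 3′ in lower case, and placed as in the array files on Btau_3.1. For ITGAV, a gene on the minus strand, the brightest probe lies at chr2:10226080-10226139 and the farthest probe upstream at chr2:10255382-10255529, a span longer than the probe.
ITGAV A_73_P101511: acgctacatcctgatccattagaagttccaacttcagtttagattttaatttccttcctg
ITGAV A_73_P101631: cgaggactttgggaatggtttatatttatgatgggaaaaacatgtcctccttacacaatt
For ITGB5, also on the minus strand, the brightest probe lies at chr1:70378019-70378078 and the upstream probe at chr1:70417814-70424601.
ITGB5 A_73_P044826: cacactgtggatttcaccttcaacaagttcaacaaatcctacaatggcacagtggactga
ITGB5 A_73_P101641: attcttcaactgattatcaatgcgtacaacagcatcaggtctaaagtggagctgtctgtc
For LAMA5, on the plus strand, the brightest probe lies at chr13:55653100-55653159 and the probe with the largest difference at chr13:55647054-55647877.
LAMA5 A_73_P113971: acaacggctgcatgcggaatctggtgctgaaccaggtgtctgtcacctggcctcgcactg
LAMA5 A_73_P347121: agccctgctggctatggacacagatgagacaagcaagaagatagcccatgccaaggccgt

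Among the collagen-binding alpha subunits, ITGA1 stood apart from control and the other 3 did not. ITGA1, whose product binds basement membrane collagen, stood at −2.20, −2.51 and −2.02 with EEF1D-1357, at −2.11, −3.21 and −2.04 with EEF1D-1893, and at −4.04 and −3.57 in control. All 6 shRNA arrays lay above both controls, and EEF1D-1893 replicate 2 was the lowest of them. The log2 difference was 1.45 for both shRNAs (SE 0.34, limma adjusted p = 0.155), a 2.74-fold ratio, with 1.56 for EEF1D-1357 and 1.35 for EEF1D-1893. On slide 1 the EEF1D-1357 arrays lay 1.32 above their control, and on slide 2 the EEF1D-1893 arrays lay 1.58 above theirs.

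ITGA2, the other collagen receptor of epithelium, overlapped between groups, with values from −2.65 to −1.74 in the shRNA arrays and of −2.41 and −2.27 in control (log2 difference 0.14, SE 0.26). ITGA10, a collagen receptor best known from cartilage, lay between −4.19 and −3.62 in the shRNA arrays, against −3.22 and −3.66 in control, a log2 difference of −0.37 (SE 0.22). ITGA11, a collagen receptor of fibroblasts, was well above background on only 2 arrays. Its controls, at −4.89 and −7.11, enclosed all 6 shRNA arrays (log2 difference −0.07, SE 0.53).

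Of the alpha subunits that bind laminin, ITGA6 was higher in every shRNA array than in either control, and ITGA3 and ITGA7 overlapped. ITGA6, the alpha chain of the hemidesmosome integrin, stood at 3.39, 3.58 and 3.79 with EEF1D-1357, at 3.40, 3.29 and 3.58 with EEF1D-1893, and at 2.79 and 3.19 in control. The gap between the lowest shRNA array and the higher control was narrow. Its log2 difference was 0.52 (SE 0.17, limma adjusted p = 0.228), with 0.60 for EEF1D-1357 and 0.44 for EEF1D-1893.

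ITGA3, which pairs with the ITGB1 product as a receptor for the epithelial laminins, lay between 4.78 and 5.20 in the shRNA arrays, against 4.95 and 5.17 in control, a log2 difference of −0.06 (SE 0.15). ITGA7, a laminin receptor best known from muscle, stood at 2.13, 2.78 and 2.64 with EEF1D-1357, at 2.47, 1.59 and 1.07 with EEF1D-1893, and at 3.18 and 1.88 in control. By this brightest probe its direction turned between the slides: EEF1D-1357 lay 0.63 above control replicate 2, and EEF1D-1893 lay below control replicate 1, with a difference of −1.47. Its second probe, in a fit with each probe as its own feature, had a difference of −1.01 (SE 0.35). There the mean of the shRNA arrays differed by −1.41 from control replicate 1 and by −0.60 from control replicate 2.

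ITGAV, which binds matrix proteins that carry the RGD tripeptide and pairs with several beta subunits, stood at 1.68, 1.77 and 1.32 with EEF1D-1357, at 1.59, 1.56 and 1.06 with EEF1D-1893, and at −0.04 and 0.80 in control. All 6 shRNA arrays lay above both controls. The log2 difference was 1.12 (SE 0.27, limma adjusted p = 0.156), a 2.17-fold ratio, with 1.21 for EEF1D-1357 and 1.02 for EEF1D-1893. Because the controls differed by 0.84, the difference was 0.79 within slide 1 and 1.44 within slide 2.

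ITGA2B, whose product is the alpha chain of the platelet fibrinogen receptor, went the other way. It stood at −4.65, −5.12 and −4.56 with EEF1D-1357, at −4.87, −3.84 and −4.33 with EEF1D-1893, and at −3.68 and −3.18 in control. Both controls lay above every shRNA array, although EEF1D-1893 replicate 2 came close to control replicate 1. The log2 difference was −1.13 (SE 0.30, limma adjusted p = 0.169), and it was −1.60 within slide 1 and −0.67 within slide 2. Of 8 platelet and megakaryocyte markers, 6 were not well above background on at least 2 arrays (GP9, GP1BA, GP1BB, PF4, PPBP and GP6). THBS1, a platelet granule protein that many other cells also express, had a log2 difference of −0.13. The summed level of the measured markers ran from 6.24 to 6.44 with EEF1D-1357, from 6.37 to 6.56 with EEF1D-1893, and from 6.49 to 6.55 in control.

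ITGA5, the alpha chain of the fibronectin receptor, lay between −1.52 and −1.17 in the shRNA arrays, against −0.97 and −1.44 in control (log2 difference −0.12, SE 0.15). ITGAE, whose product binds E-cadherin from the surface of intraepithelial lymphocytes, lay between −0.999 and −0.40 in the shRNA arrays, against −0.75 and −0.52 in control (log2 difference 0.03, SE 0.15). In both genes the EEF1D-1357 arrays lay below all EEF1D-1893 arrays, with differences of −0.22 and −0.29, neither of which was called (limma adjusted p = 0.759 and 0.747).

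**Figure D1:**
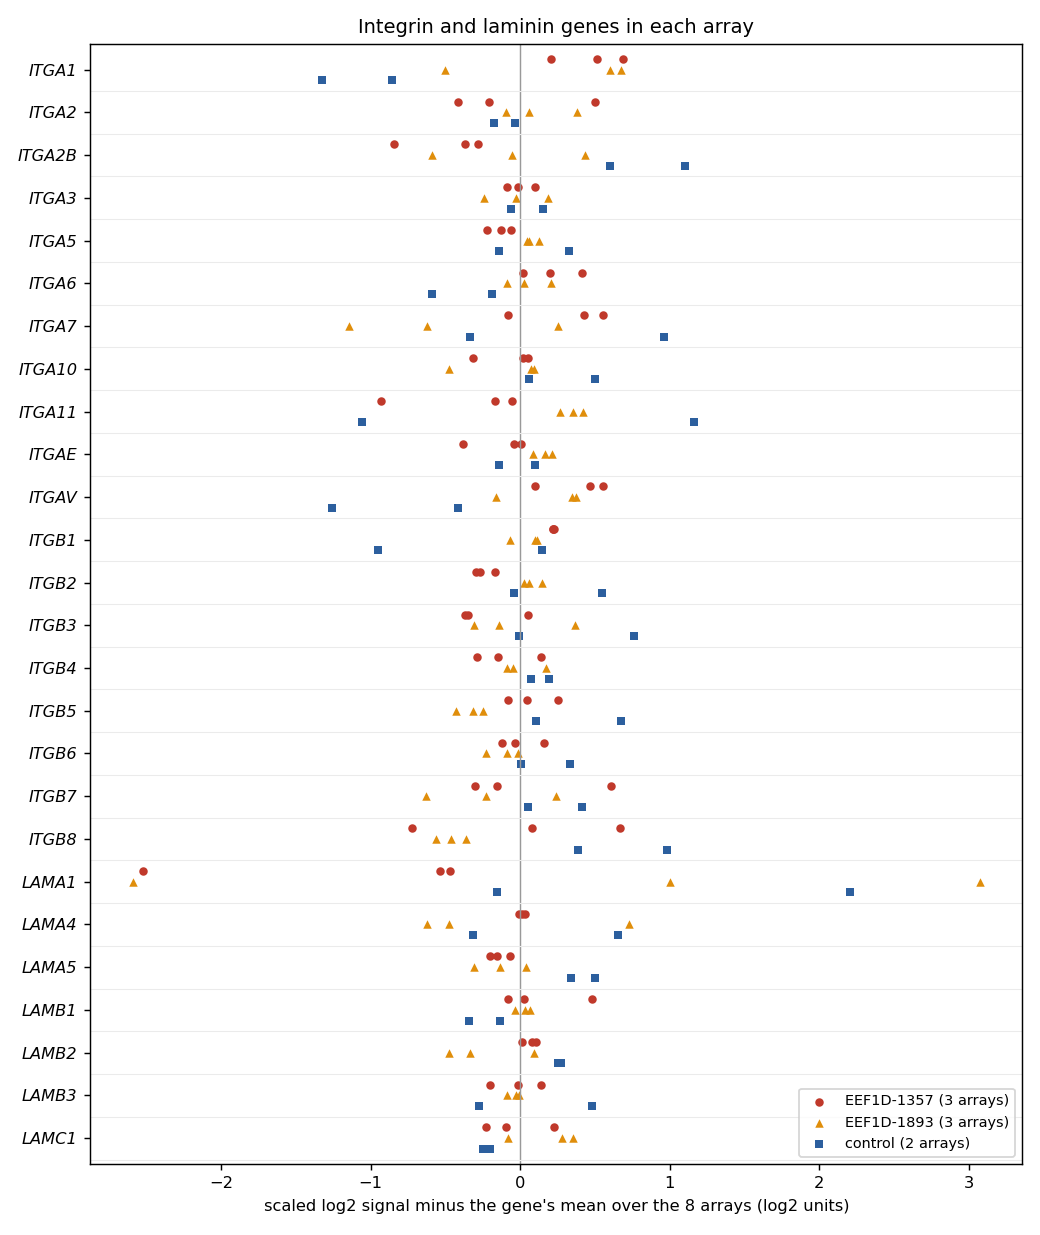
Level of 26 integrin and laminin genes in the 8 arrays, as the scaled log2 signal minus the gene's mean over the arrays (x axis, log2 units), with 1 symbol per array for EEF1D-1357, EEF1D-1893 and control. The control squares of ITGA1 and ITGAV lie left of all 6 shRNA arrays and those of ITGA2B and LAMA5 to the right, while the controls of ITGA11 and ITGB1 lie far from each other.

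Of 8 beta subunits, 7 had a log2 difference below 0 and 1, ITGB1, above it, when each gene was read by its brightest probe and against both controls. ITGB1 encodes the shared partner of most alpha subunits. It stood at 5.18, 5.18 and 5.18 with EEF1D-1357, at 5.06, 5.07 and 4.89 with EEF1D-1893, and at 4.01 and 5.11 in control. The shRNA arrays were close together, control replicate 2 lay among them and control replicate 1 lay below. The log2 difference of 0.54 (SE 0.26, limma adjusted p = 0.343) was −0.01 without control replicate 1 and 1.09 without control replicate 2, so it rests on 1 control array.

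ITGB3, ITGB5, ITGB6 and ITGB8, whose products pair with that of ITGAV, all had log2 differences below 0. ITGB5 stood at 1.13, 0.92 and 0.80 with EEF1D-1357, at 0.63, 0.56 and 0.44 with EEF1D-1893, and at 1.55 and 0.99 in control. The EEF1D-1893 arrays lay below both controls and below every EEF1D-1357 array, whereas EEF1D-1357 overlapped with control. The log2 difference was −0.72 for EEF1D-1893 (SE 0.20, limma adjusted p = 0.241) and −0.32 for EEF1D-1357 (SE 0.20, limma adjusted p = 0.438), and −0.52 for both. Between the shRNAs the difference was 0.40 (SE 0.18, limma adjusted p = 0.747).

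ITGB8, whose product with that of ITGAV activates latent TGF-beta, stood at −1.79, −2.38 and −3.18 with EEF1D-1357, at −2.92, −3.02 and −2.82 with EEF1D-1893, and at −1.48 and −2.07 in control. Of the shRNA arrays only EEF1D-1357 replicate 1 lay within the range of the controls. For both shRNAs the log2 difference was −0.91 (SE 0.35, limma adjusted p = 0.261). ITGB3, the vitronectin receptor chain, overlapped with control and had a difference of −0.50 (SE 0.27), and ITGB6, an epithelial partner of ITGAV, had −0.22 (SE 0.15).

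ITGB4, which joins ITGA6 in the hemidesmosome, lay between 5.49 and 5.95 in the shRNA arrays, against 5.96 and 5.85 in control, a log2 difference of −0.17 (SE 0.15). The leukocyte beta chains ITGB2 and ITGB7 had differences of −0.34 (SE 0.17) and −0.31 (SE 0.31). With the probes of a gene averaged, ITGB7 turned to 0.32, ITGB4 to 0.02, and ITGB2 stood at −0.06. Without control replicate 1, ITGB2 stood at −0.04 and ITGB7 at −0.13. ITGB2 lay between −2.52 and −2.08 in the shRNA arrays, against −1.68 and −2.27 in control, with all EEF1D-1357 arrays below all EEF1D-1893 arrays. These levels rest on 1 of 6 ITGB2 probes. Only 2 of the 6 were kept, and the second was well above background on 2 arrays. A probe that shares 54 bases with the brightest was so on 1 array, so the ITGB2 level is uncertain.

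Leukocyte integrin alpha chains ITGAL, ITGAM, ITGAD and ITGA4 were among the dim genes. Of 15 leukocyte markers 12 were measured, with 4 higher and 8 lower for both shRNAs against control, 0 called and a median of −0.13. Their summed level ran from 4.27 to 4.998 with EEF1D-1357, from 4.62 to 4.70 with EEF1D-1893, and from 3.92 to 4.69 in control. CD3D, a chain of the T cell receptor complex, had a difference of −0.63, and LCP1, an actin bundler of blood cells, one of 0.95. CD3E, CD8A and CSF1R were not well above background on at least 2 arrays, whereas the pan-leukocyte marker PTPRC was well above it on all 8. The part of leukocyte RNA in the ITGB2, ITGB7 and ITGAE values was not tested. In RNA from a whole culture, fewer cells of a type and less RNA per cell cannot be told apart.

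Among the laminin genes, LAMA5 and LAMB2 lay below both controls in every shRNA array and LAMB1 above both. LAMA5, the alpha chain of the laminin made by most adult epithelia, stood at 2.17, 2.22 and 2.30 with EEF1D-1357, at 2.24, 2.41 and 2.06 with EEF1D-1893, and at 2.71 and 2.88 in control. Both controls lay above every shRNA array, and the shRNAs gave nearly equal values. The log2 difference was −0.56 (SE 0.14, limma adjusted p = 0.159), a level 1.47-fold lower, with −0.56 for EEF1D-1357 and −0.56 for EEF1D-1893. Within the slides it was −0.64 and −0.48.

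LAMB2, a beta chain that pairs with LAMA5, stood at 2.68, 2.70 and 2.61 with EEF1D-1357, at 2.27, 2.69 and 2.12 with EEF1D-1893, and at 2.87 and 2.85 in control. All shRNA arrays lay below both controls, by −0.35 on average (SE 0.17, limma adjusted p = 0.335). LAMB1, another beta chain that pairs with LAMA5, went the opposite way. Its values were 3.18, 3.07 and 3.64 with EEF1D-1357, 3.19, 3.12 and 3.22 with EEF1D-1893, and 2.81 and 3.02 in control, a log2 difference of 0.32 (SE 0.17, limma adjusted p = 0.382). LAMC1, the gamma chain of most laminins, stood at 4.56, 4.43 and 4.88 with EEF1D-1357, at 4.94, 5.01 and 4.57 with EEF1D-1893, and at 4.40 and 4.45 in control. Its EEF1D-1893 arrays lay above both controls, and 1 EEF1D-1357 array lay between them (log2 difference 0.30, SE 0.18).

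LAMB3, the beta chain of the hemidesmosome laminin, had a log2 difference of −0.14 (SE 0.21). It lay between 6.71 and 7.05 in the shRNA arrays, inside its controls of 7.39 and 6.64. LAMA3, the alpha chain that assembles with it, carries no such symbol in the array files and was named through its description, so it is not among the 27. It stood at 4.97, 4.85 and 5.19 with EEF1D-1357, at 5.14, 5.26 and 5.27 with EEF1D-1893, and at 4.73 and 4.82 in control, a log2 difference of 0.34 (SE 0.13, limma adjusted p = 0.270). All 6 shRNA arrays lay above both controls. A probe of ITGA8 was also named through an accession, and its difference was −0.73 (SE 0.43, limma adjusted p = 0.410).

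LAMA4, a chain of vessel and mesenchymal laminins, overlapped with control (log2 difference −0.23, SE 0.40). LAMA1, the alpha chain of the embryonic laminin, was well above background on 5 arrays and ran from −7.08 to −1.41 in the shRNA arrays, against −2.28 and −4.64 in control. The standard error of its difference, 1.44, exceeded the difference of −1.37 in size.

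Over all 27 genes, 9 were higher and 18 lower for both shRNAs against control, with a median log2 difference of −0.17, beside a median of −0.07 and 42.8% higher over all genes tested. The median of the 27 was −0.06 without control replicate 1, beside 0.06 over all genes, and −0.36 without control replicate 2, beside −0.21, with 11 higher and 16 lower in each case. With the probes of a gene averaged it was −0.04, no longer below the −0.06 of all genes, with 12 higher and 15 lower. At an unadjusted p under 0.05 (limma), 3 were higher (ITGA1, ITGAV and ITGA6) and 4 lower (ITGA2B, ITGB5, ITGB8 and LAMA5), 25.9% of the 27 beside 16.9% of all genes, of which 7.41% were higher and 9.47% lower. For EEF1D-1357 alone the groups did not overlap for 5 higher and 6 lower genes, 18.5% and 22.2% beside 12.3% and 18.3% of all genes, and for EEF1D-1893 alone for 6 higher and 6 lower genes, 22.2% each beside 13.7% and 14.5%.

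By class, 5 alpha subunits were higher and 6 lower with a median of −0.06, 1 beta subunit was higher and 7 lower with a median of −0.32, and 3 laminin genes were higher and 5 lower with a median of −0.18. Without control replicate 1 the medians were 0.11 for alpha subunits, −0.12 for beta subunits, of which all 8 were then lower, and 0.02 for laminin genes. Without control replicate 2 they were 0.05, −0.56 and −0.10. With the probes of a gene averaged, 6 alpha subunits were higher and 5 lower with a median of 0.03, and 3 beta subunits were higher and 5 lower with a median of −0.05. The median of alpha subunits was also above 0 with median scaling (0.02), with normexp and quantile normalization (0.07) and in the deposited table (0.05).

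For EEF1D-1357 against control, 3 genes were higher and 3 lower at an unadjusted p under 0.05 (limma), 22.2% of the 27 beside 16.1% of all genes (6.29% higher, 9.84% lower), and the smallest adjusted p was 0.199 (limma). For EEF1D-1893 against control, 2 were higher and 5 lower, 25.9% beside 14% of all genes (6.82% higher, 7.21% lower), and the smallest adjusted p was 0.236 (limma). Both comparisons use the same 2 control arrays, so their values are not independent of each other.

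No difference between the shRNAs was called. At an unadjusted p under 0.05, 0 of the 27 genes passed for EEF1D-1357 against EEF1D-1893, beside 6.38% of all genes (2.57% higher, 3.81% lower), and the smallest adjusted p was 0.747 (limma). The shRNAs were on separate slides, so shRNA and slide can be told apart only through the control on each slide. EEF1D-1357 lay wholly above EEF1D-1893 for ITGB1 and ITGB5, 7.41% of the 27 beside 6.78% of all genes. It lay wholly below EEF1D-1893 for ITGA5, ITGA11, ITGAE and ITGB2, 14.8% beside 14.8%. ITGA11 was well above background on 0 EEF1D-1357 arrays and 1 EEF1D-1893 array, so its separation lies near background. With slide as a block, ITGB1 turned to −0.93, ITGB2 to 0.27, ITGA5 to 0.25 and ITGA11 to 1.49. ITGB5 and ITGAE kept their sign in that fit.

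**Figure D2:**
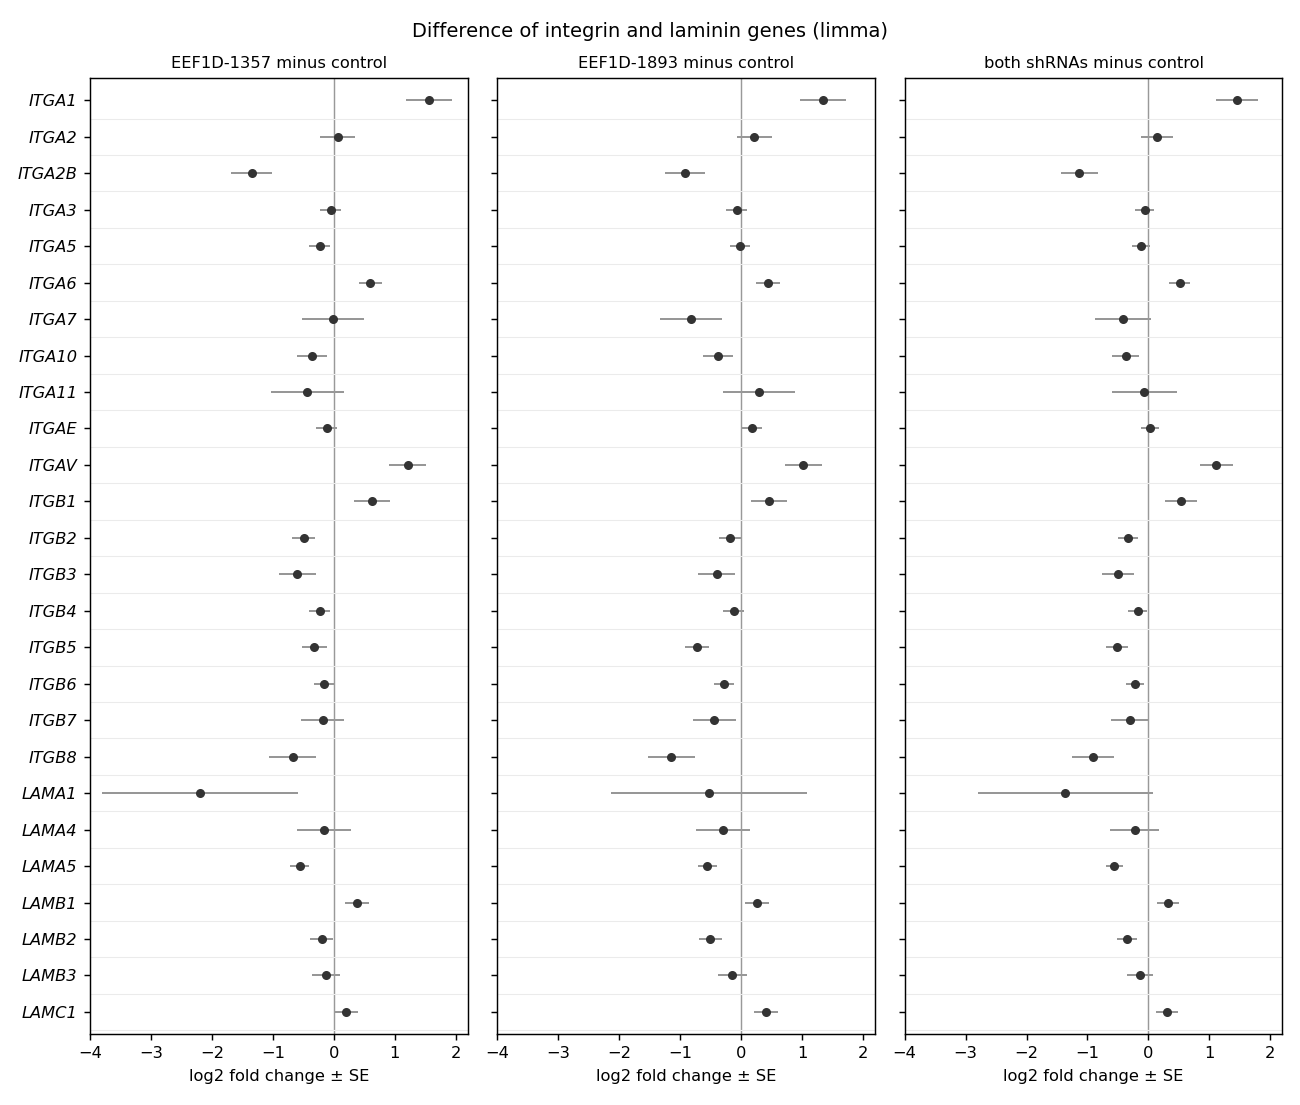
Log2 fold change with its standard error (x axis, log2 units, limma) of 26 integrin and laminin genes for EEF1D-1357 minus control, EEF1D-1893 minus control and both shRNAs minus control. ITGA1 and ITGAV lie above 1 and ITGA2B below −0.9 in all 3 panels, and most other genes lie within 1 of 0, with a wide error for LAMA1.

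The differences moved with the control array used. The controls were further apart than the difference itself for 15 of the 27 genes, and the median distance between them was 0.47. Within slides, 19 of 27 genes had the same direction for EEF1D-1357 against control replicate 2 and for EEF1D-1893 against control replicate 1. No share over all genes stands beside these counts, so they describe the 27 genes alone. The median was −0.004 on slide 1 and −0.44 on slide 2. ITGA1, ITGAV and ITGA6 were higher on both slides, and ITGA2B and LAMA5 were lower on both.

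For both shRNAs together, the direction of 10 genes turned under at least 1 alternative setting. Without control replicate 1, ITGA5 turned to 0.11, ITGA7 to 0.23, ITGA11 to 1.04, ITGAE to −0.09 and LAMB3 to 0.24, beside ITGB1. Without control replicate 2, ITGA3 turned to 0.05 and LAMA4 to 0.26, and with the probes of a gene averaged ITGA3 turned to 0.22, beside ITGB4 and ITGB7.

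Other genes kept their sign and changed in size. Without control replicate 1, ITGAV stood at 0.70, ITGA6 at 0.32, ITGA2 at 0.07, ITGA10 at −0.15, ITGB3 at −0.12, ITGB5 at −0.24, ITGB6 at −0.06 and LAMA1 at −0.18. Averaging probes brought ITGB5 to −0.04 and ITGB3 to −0.19, and normexp with quantile normalization brought ITGA2B to −0.53. ITGA1, with 1.22 without control replicate 1 and 1.69 without control replicate 2, and LAMA5, with −0.64 and −0.48, moved less than 1.5 times when either control was left out. They were not alone in this, since LAMB2 had −0.34 and −0.36, and LAMC1 had 0.28 and 0.33.

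A fit with slide as a block, whose spread comes from the shRNA arrays alone, called ITGAV (limma adjusted p = 0.0429) and ITGB1 (limma adjusted p = 0.0397) for both shRNAs against control, with 704 genes called in all. For EEF1D-1893 it called ITGAV, ITGB1 and ITGB5, with 1872 genes called in all, and for EEF1D-1357 it called 0 of the 27 and 28 genes in all. In that fit the distance between the controls is not part of the error.

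**Figure D3:**
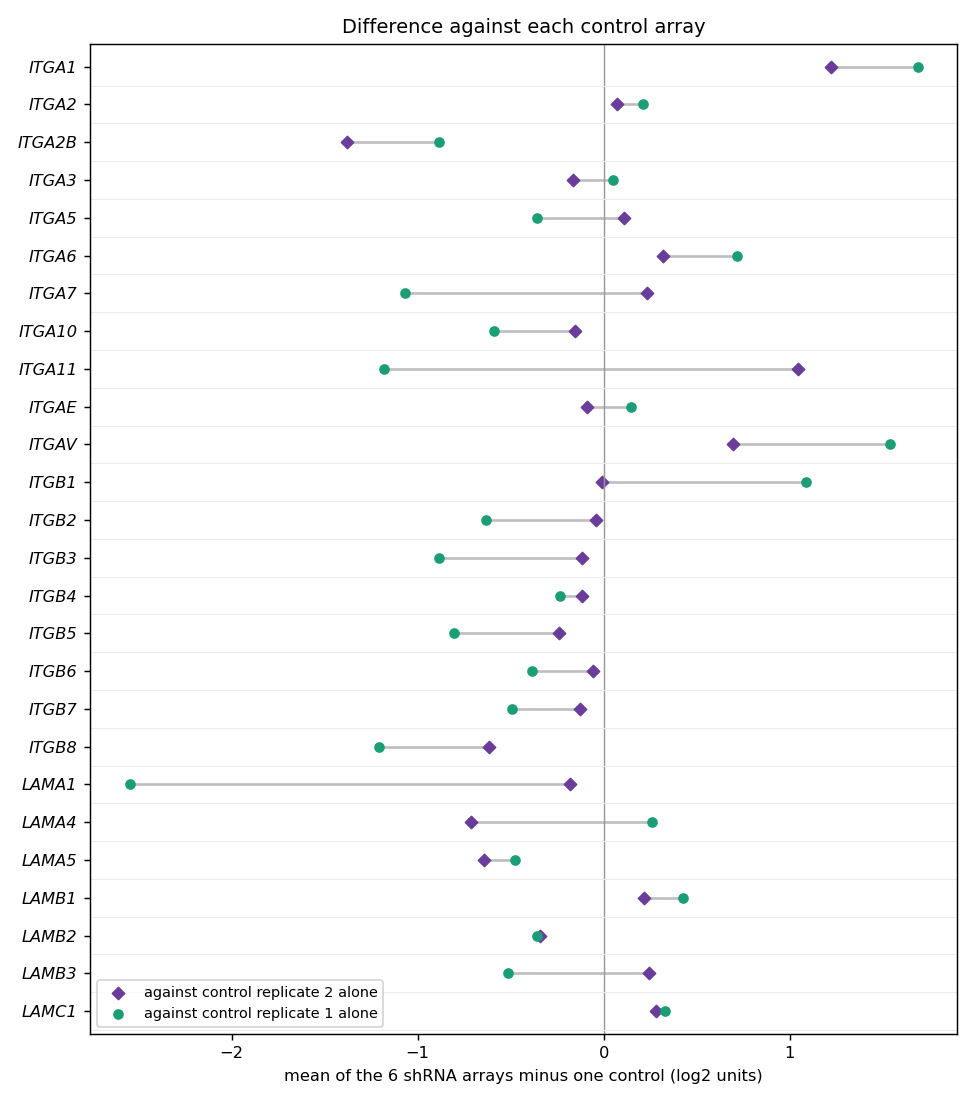
Mean of the 6 shRNA arrays minus control replicate 2 alone (diamonds) and minus control replicate 1 alone (circles), for 26 integrin and laminin genes (x axis, log2 units). ITGA1 and ITGAV are above 0 and ITGA2B and LAMA5 below 0 against either control, while ITGB1 lies at −0.01 against control replicate 2 and at 1.09 against control replicate 1.

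Probes of the same gene did not always give the same direction. Of 17 genes with several tested probes, 9 had all probes on one side of 0, among them ITGA1, ITGA6, ITGA7, ITGAV, LAMA4, LAMA5, LAMB2 and LAMC1, and 8 did not. The probe values that follow come from a fit with each probe as its own feature.

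All 4 probes of LAMA5 lay lower in the shRNA arrays, and in each the 6 shRNA arrays lay below both controls. The probe A_73_P347121, printed above, stood at −3.81, −3.77 and −3.77 with EEF1D-1357, at −3.43, −3.38 and −3.98 with EEF1D-1893, and at −2.19 and −2.58 in control. Its log2 difference of −1.31 (SE 0.20, limma adjusted p = 0.116) was larger than the −0.56 of the brightest probe, 5.28 kb from it on the build. The other 2 probes had −0.63 and −0.57. The 3 probes of LAMB2 had nearly equal differences, at −0.35, −0.37 and −0.35.

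For ITGAV, the 3 probes within 0.896 kb of the 3′-most probe had log2 differences of 1.12, 0.86 and 0.91. The probe A_73_P101631, 29.3 kb upstream, stood at −1.14, −1.15 and −1.47 with EEF1D-1357, at −0.83, −1.55 and −1.82 with EEF1D-1893, and at −1.20 and −1.92 in control. There the groups overlapped, with a difference of 0.24 (SE 0.30, limma adjusted p = 0.695). Against control replicate 2 alone the ITGAV probes had 0.70, 0.50, 0.73 and 0.60 from the 3′ end upstream. Against control replicate 1 alone the upstream probe had −0.12 and the 3′-most probe 1.54. The 2 probes of ITGA1, 61.9 kb apart on the build, had 1.45 and 1.22, and the 3 probes of ITGA6 had 0.52, 0.69 and 0.29.

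The probes of ITGB5 disagreed in direction. Its 2 probes at the 3′ end, 2.23 kb apart, had log2 differences of −0.52 and −0.39. The upstream probe A_73_P101641, 39.8 kb away, stood at −1.83, −2.02 and −2.15 with EEF1D-1357, at −2.53, −2.44 and −2.48 with EEF1D-1893, and at −3.50 and −2.59 in control. Here all 6 shRNA arrays lay above both controls, with a difference of 0.80 (SE 0.23, limma adjusted p = 0.175). All 3 probes were higher with EEF1D-1357 than with EEF1D-1893.

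Against both controls together, ITGB1 and ITGB4 were also split along their length. The 3 probes of ITGB1 had differences of 0.54, 0.35 and −0.14 from the 3′ end upstream. Against control replicate 2 alone they had −0.01, 0.13 and −0.08. In ITGB4, the 3 probes within 0.892 kb of the 3′ end had −0.17, −0.21 and −0.29, and those 7.85, 8.76 and 23.9 kb upstream had 0.14, 0.39 and 0.26. Against control replicate 2 alone these 3′ probes had −0.12, 0.07 and −0.10, and the upstream probes −0.07, 0.09 and −0.36. The split in ITGB1 and ITGB4 thus rests on control replicate 1. The control arrays differed in this measure over the whole array. Over 4060 genes with probes at least 1000 bases apart, the upstream probe relative to the downstream one stood at a median of −0.034 to 0.007 from the mean of the arrays in the shRNA arrays, against 0.068 in control replicate 1 and −0.019 in control replicate 2. By the same measure, control replicate 1 stood at 1.11 for ITGB1, −0.998 for ITGB4 and −1.73 for ITGB5. Control replicate 2 stood at −0.10, 0.35 and −0.26. These values of control replicate 1 were far larger in size than the median over the whole array, and those of ITGB4 and ITGB5 had the opposite sign. The part of the shift over the whole array in the differences between probes was not tested.

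**Figure D4:**
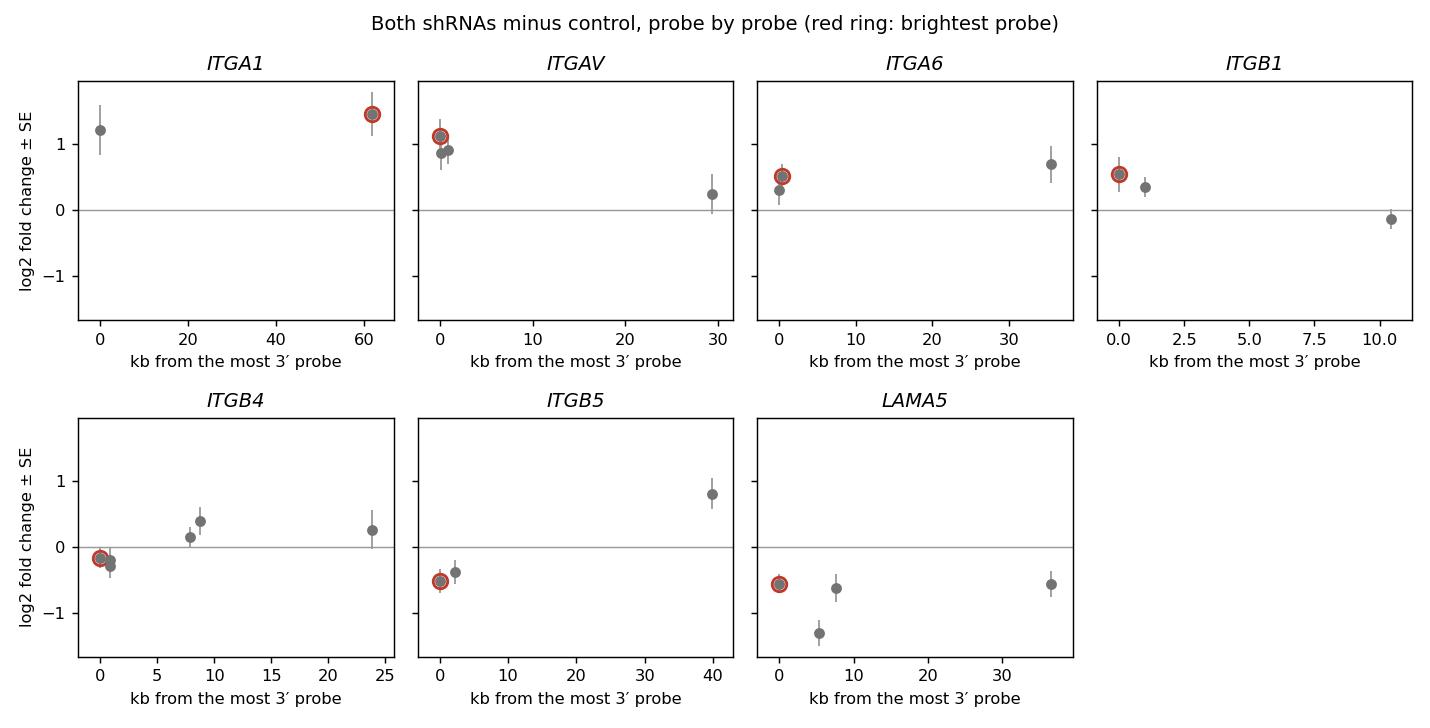
Log2 fold change with its standard error for both shRNAs minus control (y axis, log2 units) of each probe of 7 genes, against its distance in kb from the gene's most 3′ probe (x axis), with a red ring on the brightest probe. The upstream probe of ITGB5 lies at 0.80 and its 3′ probes below 0, and all 4 probes of LAMA5 lie below 0.

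Some probes of a gene overlap, and 2 such pairs are printed because their near-identical sequences were measured side by side, with the shared bases in capitals. The ITGB2 probes lie at chr1:146784447-146784506 and chr1:146784453-146784512 on the plus strand of Btau_3.1.
ITGB2 A_73_P250781: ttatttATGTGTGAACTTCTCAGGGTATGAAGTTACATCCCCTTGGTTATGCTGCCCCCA
ITGB2 A_73_104443: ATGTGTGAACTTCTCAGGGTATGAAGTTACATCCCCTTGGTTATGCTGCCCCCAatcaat
The ITGB4 probes lie at chr19:57562289-57562431 and chr19:57562280-57562422 on the minus strand, and both spans are longer than the probe.
ITGB4 A_73_P469768: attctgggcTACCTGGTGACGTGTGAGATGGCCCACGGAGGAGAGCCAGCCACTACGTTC
ITGB4 A_73_P113126: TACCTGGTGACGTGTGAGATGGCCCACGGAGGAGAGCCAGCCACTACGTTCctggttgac
The ITGB2 probes share 54 bases and are offset by 6, and the first was well above background on 1 array whereas the second was so on 8. The ITGB4 probes share 51 bases and are offset by 9, were well above background on 8 arrays each and gave differences of −0.29 and −0.21.

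Genes that work with integrins inside the cell gave 0 calls (limma, 0% of all genes called) for both shRNAs against control. Of 24 adaptors and activators of integrins 21 were measured, with 8 higher and 13 lower and a median of −0.14. TNS1, a tensin that ties integrins to actin, had a difference of −0.63 (SE 0.25, limma adjusted p = 0.268), with all 6 shRNA arrays below both controls, and TNS2 had −0.32. Of 23 genes of focal adhesion signalling 22 were measured, with 12 higher and 10 lower and a median of 0.06. PAK1, a kinase downstream of small GTPases, stood at 1.46, 1.28 and 0.71 with EEF1D-1357, at 0.90, 1.37 and 0.83 with EEF1D-1893, and at 1.74 and 2.28 in control (log2 difference −0.92, SE 0.26, limma adjusted p = 0.194). RAPGEF1, an exchange factor for RAP1A and RAP1B, had −0.50.

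Of 12 integrin inhibitors and trafficking genes 11 were measured, with 6 higher and 5 lower and a median of 0.13. RAB11A, a GTPase that returns integrins to the cell surface, stood at 4.54, 4.63 and 4.40 with EEF1D-1357, at 4.33, 4.42 and 4.32 with EEF1D-1893, and at 3.83 and 4.03 in control. Its log2 difference was 0.51 (SE 0.13, limma adjusted p = 0.159). ITGB1BP1, which binds the tail of the ITGB1 product and holds it inactive, also had 0.51 (SE 0.18, limma adjusted p = 0.237). In both genes all shRNA arrays lay above both controls.

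All 11 hemidesmosome and tetraspanin partners were measured, with 2 higher and 9 lower and a median of −0.18. DST had a difference of −0.28 and KRT5 one of −0.41, both within overlapping groups. Of 20 basement membrane partners of laminin 19 were measured, with 4 higher and 15 lower and a median of −0.29. NID2, a nidogen that links laminin to collagen, stood at −2.42, −2.34 and −2.48 with EEF1D-1357, at −1.42, −1.58 and −1.65 with EEF1D-1893, and at −3.16 and −2.58 in control. All shRNA arrays lay above both controls, EEF1D-1893 by more than EEF1D-1357, and the log2 difference was 0.89 (SE 0.17, limma adjusted p = 0.145). NTN1, a laminin-related netrin that was well above background on 5 arrays, had −1.33 (SE 0.29, limma adjusted p = 0.154).

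Of 30 other integrin ligands 20 were measured, with 8 higher and 12 lower and a median of −0.04. ICAM3, a ligand of leukocyte integrins, was well above background on 0 EEF1D-1357, 3 EEF1D-1893 and 2 control arrays. Its difference of −2.27 (SE 0.43, limma adjusted p = 0.145) thus includes EEF1D-1357 signals near background. VWF, the von Willebrand factor, had −0.70. Of 14 laminin receptors other than integrins 12 were measured, with 5 higher and 7 lower and a median of −0.08. SGCB, a sarcoglycan of the dystroglycan complex, had 0.49, and SDC2, a syndecan, 0.73.

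Markers of the cell types that a mammary culture can hold also gave 0 calls. Of 12 luminal markers 8 were measured, with 2 higher and 6 lower, a median of −0.29 and summed levels from 8.94 to 9.03 with EEF1D-1357, from 8.93 to 9.12 with EEF1D-1893, and from 9.02 to 9.87 in control. GATA3 had a difference of −0.49 and KRT18 one of −0.44, and ELF5, ESR1, PGR and CD24 were not measured. Of 12 basal and myoepithelial markers, which include the KRT5 and KRT14 of hemidesmosome-bearing cells, 11 were measured, with 1 higher and 10 lower, a median of −0.32 and summed levels from 8.46 to 8.80 with EEF1D-1357, from 8.63 to 9.05 with EEF1D-1893, and from 8.85 to 9.23 in control. The oxytocin receptor OXTR was well above background on 0 shRNA arrays and 2 control arrays, so its difference has only a bound. The bound was at least 2.07-fold lower in the shRNA arrays, a ratio set against the lowest signal called well above background on each shRNA array. OXTR passed the filter on dim probes through the control arrays alone, and its difference was not called. It is nevertheless counted among the 10 lower basal and myoepithelial markers and enters their median. The contractile kinase MYLK had a log2 difference of −3.50 (SE 0.92, limma adjusted p = 0.172), and MYH11 was not measured.

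Of 12 fibroblast markers 11 were measured, with 1 higher and 10 lower, a median of −0.38 and summed levels from 3.25 to 3.88 with EEF1D-1357, from 2.57 to 3.69 with EEF1D-1893, and from 3.70 to 4.46 in control. FAP had a difference of −0.67 and S100A4 one of −0.90. Of 10 endothelial markers 5 were measured, with 2 higher and 3 lower, a median of −0.11 and summed levels from −1.87 to −1.68 with EEF1D-1357, from −2.17 to −1.49 with EEF1D-1893, and from −2.14 to −1.32 in control. VWF had −0.70 and ESAM 0.97, and PECAM1, KDR, TEK, TIE1 and EMCN were not measured. The part of these shifts in the integrin and laminin values was not tested.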

How the data were processed

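One-colour Agilent arrays of 8 samples were read: 3 with EEF1D-1357, 3 with EEF1D-1893 and 2 controls. Per the file headers, Agilent Feature Extraction 10.7.3.1 made the processed intensity, which is background-subtracted, detrended and not normalized between arrays, and the 0 or 1 flags that the authors deposited with it; the submitters' processing notes name version 9.1. The deposited series table holds log2 values with equal quantiles, which correlated with the scanner values at 0.998 to 1.000, and was used only as an alternative.

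Of 43653 probes, 238 with an outlier flag on any array were left out, none of an integrin or laminin gene. The log2 processed intensity was reduced by each array's 75th percentile. A probe was kept if its signal was well above background on 2 or more arrays (30702 probes, 25753 of them named), and the brightest per gene was taken, for 12780 genes. Names came from the files' accession, symbol or description through RefSeq's gene table (assembly ARS-UCD2.0), used for names alone. Of all probes, 26560 were named by their accession, and 8825 had no name. Integrin and laminin genes kept the symbol of the files.

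Group means were estimated from all 8 arrays together in limma 3.58.1 (R 4.3.3, statmod 1.5.0), with 5 residual degrees of freedom plus a prior of 2.12. Tests were two-sided, and adjusted p is Benjamini-Hochberg over all genes (over all kept probes for single probes). The workflow was tested on simulated data. A summed level is the log2 of the sum of a list's signals over its measured genes. The alternatives were normexp correction (offset 50) with quantile normalization, median scaling, dim probes retained or only probes well above background on all 8 arrays, a gene's probes averaged, the deposited table, slide or replicate number as a block, and each array left out. Of each list the called genes, and otherwise the 2 with the smallest p-value for both shRNAs against control, are named. The integrin and laminin genes and the lists were chosen with earlier results of these data known, and some lists share genes. Single values of 1 of the 27 tested genes and of 1 marker are not reported here and are not drawn, although both enter the counts.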

Additional observations from a re-analysis of the deposited data

How the results depend on the processing

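Of 1848 values computed under an alternative, 1703 counted as unchanged. Of these, 1592 were differences of a gene that stayed on their side of the threshold and moved by less than the replicate spread. The rest were counts of called genes that stayed at 0. Some differences could not move, such as those between the shRNAs when a control was left out. No gene was called with the settings of the report, so none could lose a call. With slide as a block, 2 integrin and laminin genes were called for both shRNAs (704 genes in all) and 3 for EEF1D-1893 (1872 in all), with 28 genes in all for EEF1D-1357, each set against control, and 6 for EEF1D-1357 against EEF1D-1893; its error leaves out the difference between the controls. The filter on all 8 arrays, which drops ITGA11 and LAMA1, called 3 genes for EEF1D-1357 against control, and normexp with quantile normalization called 1 between the shRNAs. Leaving out each array in turn gave 0 to 6 integrin and laminin genes for both shRNAs, 0 to 6 for EEF1D-1357 and 0 to 3 for EEF1D-1893 against control, with 0 to 2952, 0 to 2950 and 0 to 1872 genes in all. The highest counts came without control replicate 2, where the lone control is assumed to vary as the shRNA arrays do; without control replicate 1 they were 26, 28 and 25 genes and 0 integrin or laminin genes. The replicate block gave 0 calls. Whether replicate numbers pair the arrays is not settled. Correlations of deviations from the group means ran from −0.10 to 0.14 between same-numbered arrays and from −0.14 to 0.06 between arrays of different number. The 2 controls deviate from their mean by equal and opposite amounts, so each correlation with a control recurs with the opposite sign. These ranges are therefore not independent and cannot settle the pairing. Among same-numbered arrays, only replicate 2 of EEF1D-1357 with replicate 2 of EEF1D-1893 lay below 0.

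Of the 27 genes, 17 kept their sign for both shRNAs against control under every alternative run and 21 were called under none. The split of 9 higher and 18 lower became 11 and 16 with median scaling or the deposited table, and 12 and 15 with normexp and quantile normalization or the mean of a gene's probes, where the median of the 27 was −0.07 and −0.04. The median of all genes was 0.06 without control replicate 1 and −0.21 without control replicate 2. ITGA11 and LAMA1 are limited by signal near background.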
